A study of Ovis aries with 6 samples.

Results

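The regions described here are the stretches of low CpG methylation on sheep chromosome 11 (chr11) in perirenal adipose tissue. The authors' 4 lists of unmethylated regions (UMRs) and low-methylated regions (LMRs), 1 list of each kind per stage, were merged wherever entries overlapped, and the merged regions on chr11 were kept. This gave 7112 of the 154851 merged regions of the 26 autosomes. A merged region that held any UMR entry is called UMR class (1436 of 22579), and the others are called LMR class (5676 of 132272). The 30 merged DNA methylation valleys (DMVs) of 552 and the 67 differentially methylated regions (DMRs) of 1022 that lie on chr11 were added. The chromosome was chosen by its DMR density, and the DMRs were themselves listed from the fetal against lamb contrast of these animals. Its DMR density and its stage differences are therefore given as descriptions, with no test of whether it stands apart in them.

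The series holds whole-genome bisulfite libraries from 3 fetal sheep and 3 lambs, 1 sequencing lane per animal. All are wild type, pure bred merino and untreated, and each sample is a separate animal. The fetal animals were taken 132 days post conception and their tissue is labelled brown adipose tissue. The lambs are labelled 89 days old, although the design text gives 80 days after birth, and their tissue is labelled white adipose tissue. The sample descriptions end in TV for the fetal animals and in VEH for the lambs, so the tags and the stages cannot be told apart. Whole tissue was used, so a change in the mix of cell types and a change within one cell type cannot be told apart, and methylation alone does not check the labelled tissue. Bisulfite converts unmethylated cytosine so that it is read as T. The methylation level is the share of reads at CpG positions that still show C, here methylated reads divided by covering reads, both summed over the CpGs of a region or class.

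UMRs are short stretches with little methylation and include most CpG-rich promoters. LMRs are CpG-poorer stretches of intermediate methylation that are often distal regulatory elements such as enhancers, where bound transcription factors keep methylation down. DMVs are long unmethylated stretches that often hold genes for developmental regulators. Perirenal fat of newborn sheep is a heat-producing brown depot that turns into storing white fat in the weeks after birth.

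On chr11 a CpG was covered by 5.36 reads on average in lamb 2, the lowest, and by 8.36 in lamb 1, the highest. It was higher than on the other autosomes in each animal, by a ratio of 1.07, 1.09 and 1.13 in fetal animals 1 to 3 and of 1.05, 1.03 and 1.02 in lambs 1 to 3. The ratios of the stages did not overlap, and the part of this in the stage differences below was not tested. A CpG was used where no animal had fewer than 5 reads, which left 256636 CpGs on chr11, 27.7% of its positions against 24.6% elsewhere.

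Chr11 carried low-methylated regions at a high density for every class. It spans 62.2 Mb, 2.54% of the autosomal length, and holds 3.72% of the autosomal CpG positions, with 14.9 CpGs per kb against 10.0 on the other 25 autosomes, second to chromosome 24. There were 23.1 UMR-class regions per Mb against 8.85 elsewhere, a ratio of 2.61 (95% interval 2.47 to 2.75, for counting error only) and the highest of the 26 autosomes, just ahead of chromosome 14 at 22.6. LMR-class regions stood at 91.2 per Mb against 53.0, a ratio of 1.72 (95% interval 1.68 to 1.77), second to chromosome 24 at 92.7. DMVs stood at 0.482 per Mb against 0.218, a ratio of 2.21 (95% interval 1.47 to 3.19), the highest, with chromosome 20 next at 0.469. These densities do not use the stage difference, but they ran with the DMR density by which chr11 was chosen, as given below.

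Counted per CpG position, the excess shrank. The ratio to the other autosomes was then 1.76 for UMR-class regions (95% interval 1.66 to 1.85), 1.16 for LMR-class regions (95% interval 1.13 to 1.19) and 1.49 for DMVs (95% interval 0.993 to 2.15). The interval for DMVs per CpG includes equal density.

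DMRs stood at 1.08 per Mb on chr11 against 0.400 on the other autosomes, a ratio of 2.69, second to chromosome 20 at 1.37 and ahead of chromosome 24 at 0.975. This is the value by which the chromosome was chosen. Per CpG position the ratio was 1.82 and per merged UMR or LMR it was 1.46, and by each of these chr11 ranked at 2 of 26. Per 1000 UMR-class regions, a count chosen after seeing the data, chr11 had 46.7 DMRs against 45.2 elsewhere, a ratio of 1.03. It then ranked at 13 of 26. Of its 67 DMRs, 33 lay at a UMR-class region. The hyper list (34 entries) and the hypo list (33 entries) shared the excess per Mb, with ratios of 2.65 and 2.74. The names were read as higher and lower in lambs from the levels at the listed regions, since the lists hold positions alone. Across the 26 autosomes the density of DMRs ran with that of UMR-class regions (Spearman's rho 0.82, Pearson's r 0.78), with that of LMR-class regions (rho 0.85, r 0.78) and with CpG density (rho 0.89, r 0.81). All 4 densities share the chromosome's base composition, and chr11 is 1 of the points.

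**Figure D1:**
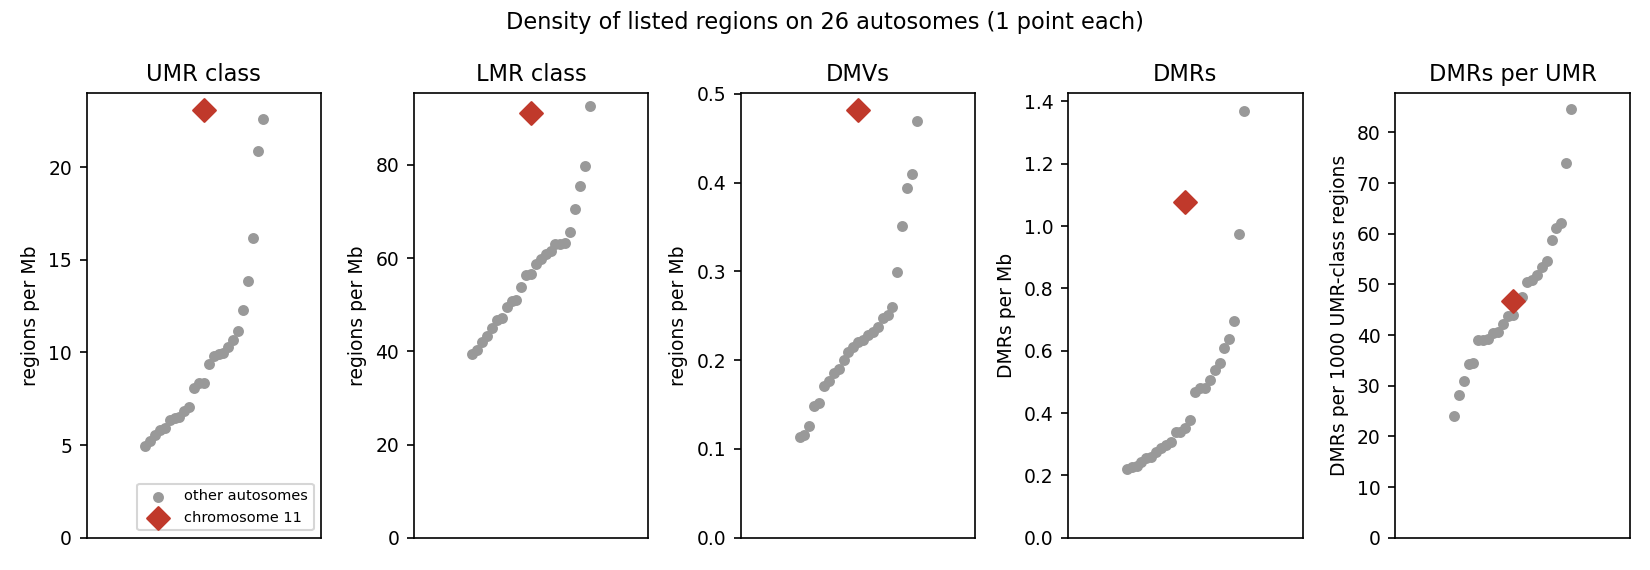
Density of listed regions on each of the 26 autosomes. The y axes give regions per Mb of span for UMR-class regions, LMR-class regions, DMVs and DMRs, and in the last panel DMRs per 1000 UMR-class regions; each point is 1 autosome in order of value and the diamond is chr11. Chr11 is highest for UMR-class regions (23.1 per Mb) and DMVs (0.482), second for LMR-class regions and DMRs, and in the middle once DMRs are counted per UMR-class region (46.7 against 45.2 elsewhere). The count of the last panel was chosen after seeing the data.

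Most members were listed in both stages. Of the 7112, 1258 were UMRs in both stages and 3519 (49.5%) LMRs in both. A further 101 were UMRs in fetal tissue and LMRs in lambs, and 66 were the reverse. LMRs of the fetal list alone numbered 1201 (16.9%, against 20.7% on the other autosomes) and LMRs of the lamb list alone 956 (13.4%, against 17.1%). UMRs of 1 stage with no entry in the other were few, 6 fetal and 5 lamb. Within the LMR class, 62.0% of regions on chr11 were LMRs in both stages against 55.8% elsewhere, whereas for the UMR class the share was 87.6% in both places.

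The LMR class of chr11 was shorter, richer in CpGs and closer to UMRs than that of the other autosomes. Its median length was 528 bases against 647, and its median CpG density 1.86 per 100 bases against 1.37. The median distance to the nearest UMR-class region was 14241.5 bases against 40841, and 25.2% lay within 5 kb of one against 13.6%. UMR-class regions differed less, with median lengths of 1800.5 and 1927 bases and median densities of 3.93 and 3.84 CpGs per 100 bases. UMR- and LMR-class regions covered 5.52% and 6.50% of the span of chr11 against 2.27% and 4.63% of that of the other autosomes. Regions are not replicates of each other, so these medians carry no test.

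The 3 longest UMR-class regions outside DMVs lie together near the start of the chromosome and were not at typical UMR levels. The longest, chr11:594358-621883, covers 27526 bases with 19 usable CpGs. It stood at 41.2%, 33.8% and 31.5% in the fetal animals and at 32.0%, 46.4% and 35.8% in the lambs, with full overlap of the stages, and without lamb 2 the stage difference was -1.61 points in place of 2.56. The region chr11:327775-345116 had 22 usable CpGs and levels of 34.5%, 36.8% and 30.8% in fetal animals against 46.5%, 44.7% and 36.6% in lambs, where lamb 3 fell just under fetal animal 2. The region chr11:292669-312088 had 9 usable CpGs and means of 20.4% ± 3.08 and 23.8% ± 6.87 (SD, n = 3 each).

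Among LMR-class regions, the one with the most usable CpGs (25 within 204 bases, chr11:7996930-7997133) stood at 55.3%, 37.8% and 56.2% in the fetal animals and at 45.5%, 38.2% and 53.5% in the lambs. The next, chr11:7528508-7529286 with 21 CpGs, was at 17.1%, 39.1% and 20.6% against 32.4%, 31.1% and 27.5%. In both regions fetal animal 2 stood apart from the other fetal animals and the stages overlapped. In the third, chr11:40126558-40127390 with 20 CpGs, the fetal animals were at 48.1%, 45.8% and 39.9%, each above the lambs at 37.4%, 35.7% and 24.8%. This difference was not called (quasi-binomial test, adjusted p = 0.334).

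The levels of the chr11 classes were close to those of the same classes elsewhere, with small shifts that had the same sign in each animal. In the UMR class outside DMVs, chr11 was at 12.6%, 12.6% and 12.2% in fetal animals 1 to 3 and at 12.5%, 13.2% and 12.8% in lambs 1 to 3. Within an animal, chr11 was higher than the other autosomes by 0.0292 to 0.627 percentage points, on average 0.342 ± 0.226 (SD, n = 6). The same difference was +0.492 ± 0.167 points for CpGs outside all lists, which stood at 80.1% on chr11 and 79.6% elsewhere. Among the 26 autosomes chr11 ranked at 11 by level in the UMR class (range 10.2% to 16.2%) and at 6 outside the lists (78.8% to 80.6%).

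In the LMR class, chr11 was at 32.6%, 33.2% and 31.8% in the fetal animals and at 34.3%, 35.1% and 33.9% in the lambs, lower than elsewhere by 0.188 to 0.767 points (mean difference -0.417 ± 0.218, SD, n = 6). DMVs of chr11 were at 5.38%, 5.52% and 4.67% in fetal animals and at 5.61%, 5.53% and 5.61% in lambs. They were lower than DMVs elsewhere in 6 of 6 animals, with a mean difference of -0.819 ± 0.390 points (SD, n = 6). Chr11 ranked at 20 of 26 by level in both classes, within a range of 32.7% to 35.7% for the LMR class and of 3.69% to 8.41% for DMVs.

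For each of the 4 classes the exact sign-flip permutation test over the 6 animals, two-sided, returned p = 0.03125, as low as 6 animals can give, and the adjusted value over the 4 classes is the same. The test asks whether the animals share a sign, not whether chr11 stands apart among the autosomes. Other chromosomes also lay to 1 side in each animal. In the UMR class chromosome 1 was at 10.7% to 11.4% and chromosome 10 at 13.7% to 15.4%. The autosomes without chr11 were together at 11.9% to 12.6%. With regions listed in the same class in both stages alone, the UMR-class difference was 0.210 points (exact permutation p = 0.09375). The LMR-class difference was -0.0455 points (exact permutation p = 0.6875), so neither reached the smallest p there. For DMVs it was -0.550 points (exact permutation p = 0.03125). With a minimum of 10 reads, which left 246 UMR-class CpGs on chr11, the UMR-class difference was -3.98 points and that of DMVs, on 3 CpGs, -5.81 (exact permutation p = 0.03125 each). The LMR-class difference was then -3.83 points (exact permutation p = 0.09375), and outside the lists, on 833 CpGs, it was 5.05 (exact permutation p = 0.03125). The size also moved under other settings with p at 0.03125 in the exact permutation test. In the UMR class it was 0.575 points with a minimum of 3 reads, 0.577 with none, 0.602 with equal weight per CpG and 0.541 without CpGs of over 3 times the median coverage. In the LMR class it was -0.693 with a minimum of 3 reads and -0.681 with none. With no minimum it was -0.506 in DMVs and 0.835 outside the lists. The classes were listed for their low level on every chromosome alike, and the mix of lengths and of listing differs between chr11 and the rest.

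**Figure D2:**
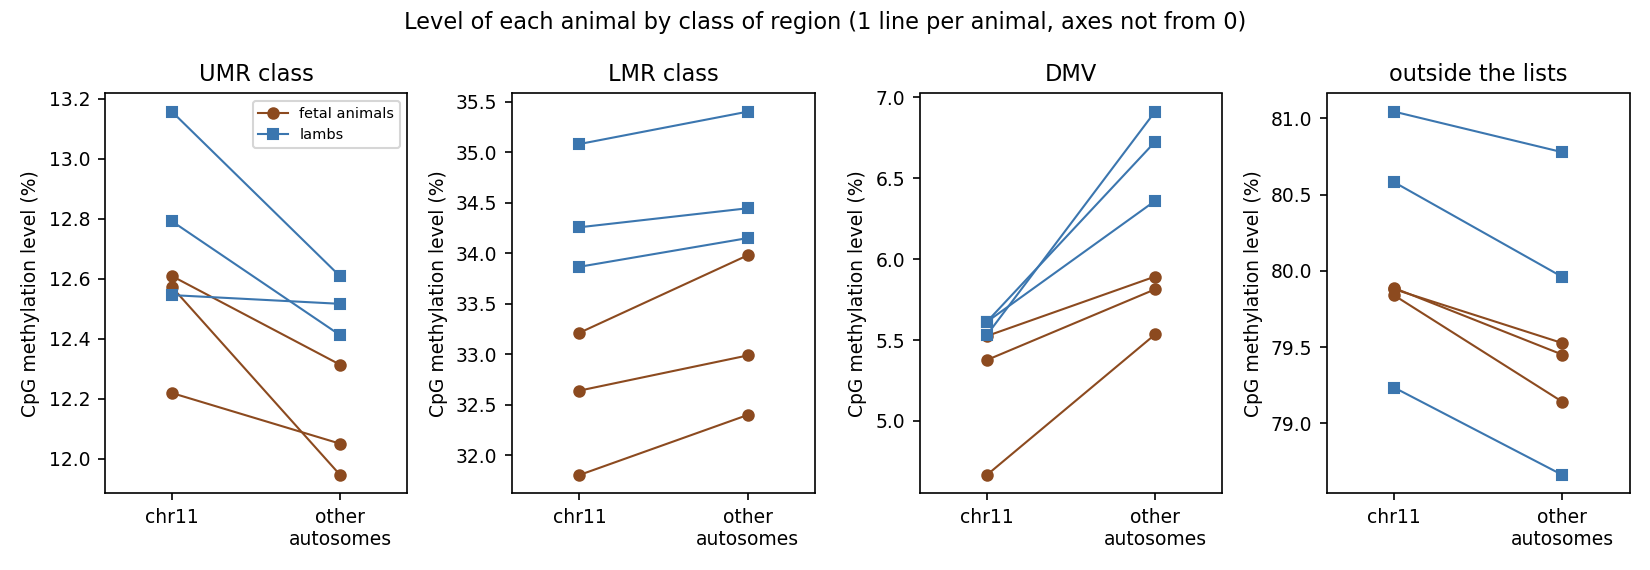
CpG methylation level (%) of each animal in 4 classes, on chr11 and on the other autosomes, 1 line per animal; circles are fetal animals and squares are lambs, and the y axes do not start at 0. Lines fall from chr11 to the other autosomes for the UMR class and outside the lists and rise for the LMR class and DMVs, in 6 of 6 animals each.

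Level followed length within the UMR class. UMR-class regions of 500 to 1000 bases stood at 21.7% on chr11 (range of the 6 animals 20.1% to 22.7%), those of 1000 to 2000 bases at 13.8% (13.5% to 14.4%) and those of 2000 to 3000 bases at 9.93% (9.66% to 10.2%). On the other autosomes the values were 21%, 13.0% and 9.61%. Regions of 3000 bases or more were higher again, at 11.97% on chr11 and 11.81% elsewhere. In the LMR class the 3 steps from under 500 bases to under 2000 stood at 36.9%, 31.1% and 31.8% on chr11, and regions of 3000 bases or more at 41.7% against 38.4% elsewhere. Those long LMRs (116 on chr11) varied most among animals, from 37.3% in fetal animal 3 to 47.5% in lamb 2.

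Single members spread widely around these class levels. Of the 1436 UMR-class regions 1338 had at least 3 usable CpGs, and of the 5676 LMR-class regions 2857, so 4195 of 7112 could be examined one by one. The tested UMR-class regions had a median level of 11.9% (quartiles 5.72% and 24.6%), and 579 (43.3%) were under 10%. The tested LMR-class regions had a median of 35.8% (quartiles 26.1% and 43.0%), 132 (4.62%) were under 10% and 225 (7.88%) at 50% or more. The medians elsewhere were 10.8% and 35.6%.

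From fetal tissue to lambs, the LMR class of chr11 was higher in each lamb than in each fetal animal. It went from 32.6% ± 0.708 to 34.4% ± 0.621 (SD, n = 3 each), a difference of 1.85 points against 1.54 on the other autosomes. All 26 autosomes were higher in lambs in this class, by 1.02 to 1.89 points, and chr11 ranked at 4. Regions that were LMRs in both stages made up the same difference of 1.86 points on chr11 (29.5% ± 0.646 to 31.3% ± 0.619), against 1.42 elsewhere. With 1 animal left out the difference of the LMR class ran from 1.48 to 2.18 points.

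The UMR class of chr11 went from 12.5% ± 0.215 to 12.8% ± 0.308 (SD, n = 3 each), a difference of 0.365 points within the spread of the animals. Lamb 1, at 12.5%, was lower than fetal animals 1 and 2. The difference was 0.202 points without lamb 2, 0.241 without fetal animal 3 and 0.238 over regions listed in both stages. On the other autosomes the difference was 0.409 points and the stages did not overlap. DMVs went from 5.19% ± 0.459 to 5.59% ± 0.0472, a difference of 0.396 points against 0.919 elsewhere, and chr11 ranked at 23 of 26 autosomes. The lambs and fetal animals were separate in DMVs of chr11 by a narrow margin, 5.53% in lamb 2 against 5.52% in fetal animal 2. Without fetal animal 3, the lowest, the difference in DMVs was 0.135 points. Outside the lists the difference was 0.418 points against 0.427 elsewhere, with overlap, since lamb 1 was the lowest of the 6 animals at 79.2% and lamb 2 the highest at 81.0%. That difference was 0.0390 points without lamb 2, 0.271 without lamb 3 and 0.944 without lamb 1. With a minimum of 10 reads the stage difference on chr11 was -0.251 points in the UMR class, 7.40 in the LMR class (103 CpGs) and -0.526 in DMVs (3 CpGs).

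**Figure D3:**
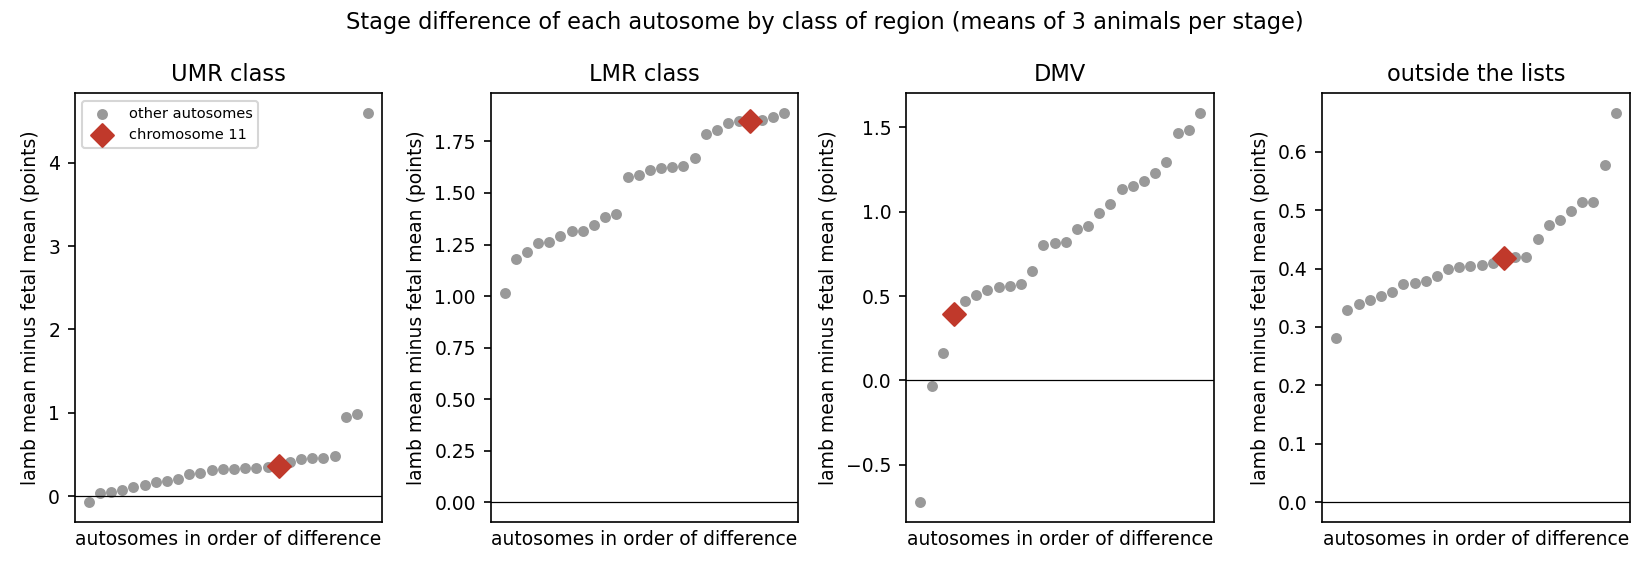
Difference between lamb mean and fetal mean (percentage points, 3 animals per stage) for each of the 26 autosomes in order of value, by class of region; the diamond is chr11 and the line is 0. Chr11 ranks at 4 for the LMR class (1.85 points), at 9 for the UMR class (0.365), at 23 for DMVs (0.396) and at 11 outside the lists (0.418).

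The listing of a region in 1 stage went with its level. The lists come from the same animals, and no source used here says how they were called, so these levels are no independent evidence. LMRs of the fetal list alone stood at 38.2% ± 1.59 in fetal animals and 49.2% ± 1.35 in lambs (SD, n = 3 each). LMRs of the lamb list alone stood at 49.1% ± 0.662 and 39.6% ± 0.257. The regions that were UMRs in fetal tissue and LMRs in lambs went from 30.9% ± 0.794 to 36.6% ± 1.81, and those of the reverse kind from 33.5% ± 1.09 to 30.2% ± 1.44. Both kinds stood near 30% to 37% in either stage, so they lie at the border of the 2 classes and far above the 10.99% to 11.21% of regions that were UMRs in both.

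No single merged UMR or LMR of chr11 was called. The quasi-binomial test called a region at a Benjamini-Hochberg adjusted p under 0.05 and at least 10 points between stage means, and it called 0.0038% of the 78994 regions tested over the autosomes (3 regions). On chr11 0 of 4195 passed, with a smallest adjusted p of 0.185. At an unadjusted p under 0.05 there were 467 (11.1%, against 11.3% over all autosomes), 315 higher in lambs (7.51%, against 7.15%) and 152 lower (3.62%, against 4.1%). limma on log2 ratios called 0, with 416 at an unadjusted p under 0.05 (9.92%, against 10.2% over all autosomes). edgeR's quasi-likelihood test called 0, with 437 (10.4%, against 10.3%). The median difference was 0.21 points in the UMR class (quartiles -1.40 and 2.66) and 1.54 points in the LMR class (quartiles -4.25 and 7.78), against 0.30 and 1.46 points elsewhere.

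In 678 of the 4195 (16.2%) the 3 lambs and the 3 fetal animals did not overlap, against 16% of the regions tested over all autosomes. Of these, 427 were higher in lambs (10.2%, against 9.8%) and 251 lower (5.98%, against 6.15%). In the UMR class 112 of 1338 were higher (8.37%, against 8.34%) and 85 lower (6.35%, against 5.49%). In the LMR class 315 of 2857 were higher (11.03%, against 10.3%) and 166 lower (5.81%, against 6.39%). The shares on chr11 are near the background of the autosomes. Between windows of 1 kb, 0 of 33950 on chr11 were called, where the background is 0%, and 2101 (6.19%, against 6.11%) had an unadjusted p under 0.05.

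**Figure D4:**
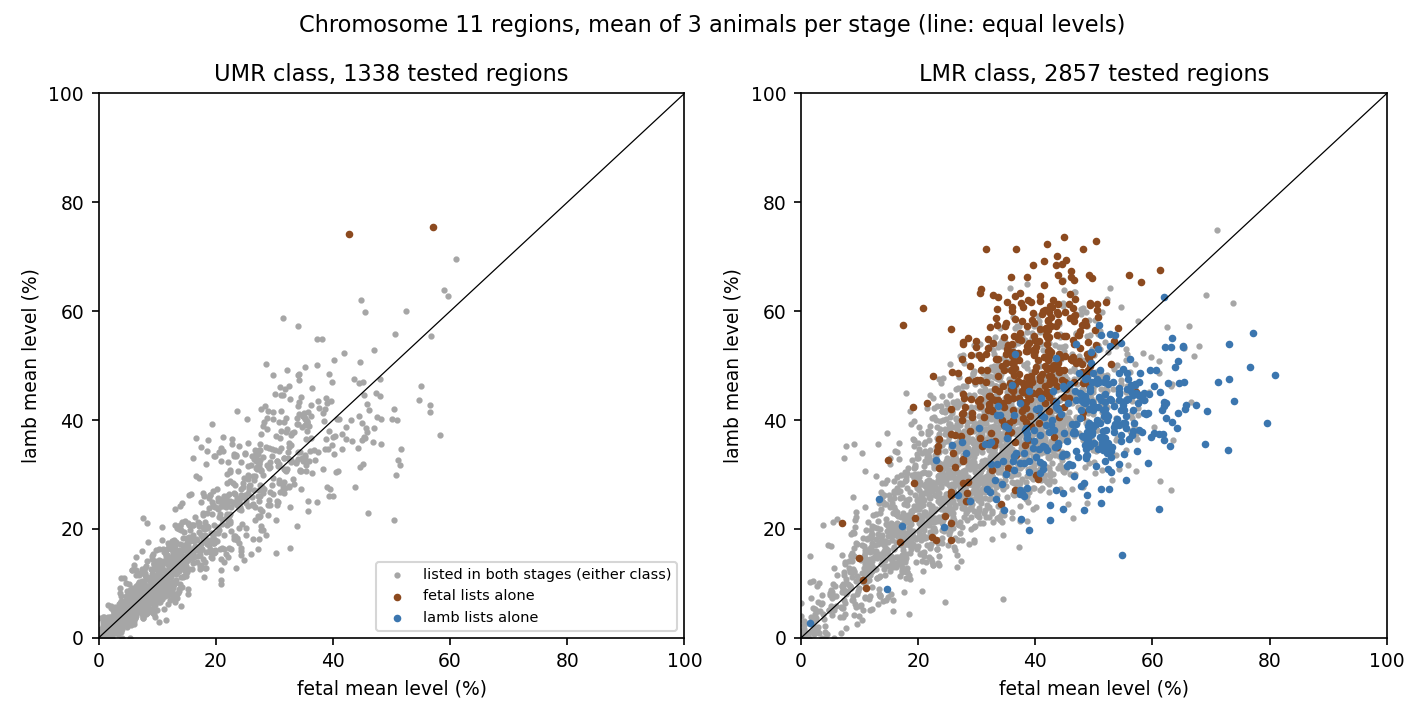
Mean level (%) in lambs against mean level in fetal animals (3 animals per stage) for the 1338 UMR-class and 2857 LMR-class regions of chr11 with at least 3 usable CpGs; colours give the stage whose lists hold the region and the line marks equal levels. Most UMR-class regions sit in the lower left along the line, while LMR-class regions spread around it. By their pooled level the LMRs of 1 stage lie on the side of their listing, but some single ones lie on the other side.

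The members without overlap and with the smallest p values were named in each direction. They were picked on CpGs with at least 5 reads in each animal. Each of their differences was smaller with no coverage minimum, a setting chosen after seeing the data. The UMR chr11:42685274-42686876, with 22 usable CpGs and 296 reads per animal, was at 5.71%, 7.12% and 5.08% in fetal animals and at 13.7%, 14.6% and 12.1% in lambs, a gap much wider than the spread within a stage (7.49 points, adjusted p = 0.185). The UMR chr11:22815822-22817434, with 23 CpGs, had very even animals, at 31.0%, 31.8% and 31.4% against 44.6%, 46.5% and 42.9% (13.2 points, adjusted p = 0.198). The UMR chr11:36216199-36221896, with 52 CpGs, was at 9.55%, 11.2% and 11.6% against 16.5%, 25.7% and 18.8% (9.56 points, adjusted p = 0.198). It holds an entry of the hyper list, chr11:36216563-36216584, and lamb 2 stood above the other lambs in it. The differences of these UMRs were 6.11, 10.9 and 7.99 points with no coverage minimum, in the order given here.

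Both LMR-class regions named as higher in lambs had larger differences. The LMR of both stages chr11:48024840-48026420, with 11 CpGs, was at 35.8%, 21.6% and 31.2% in fetal animals and at 53.9%, 57.0% and 50.6% in lambs (24.3 points, adjusted p = 0.188). The LMR of the fetal list alone chr11:45735796-45736666 was at 26.5%, 12.5% and 13.0% against 57.6%, 52.4% and 62.5%, on 3 CpGs only (40.1 points, adjusted p = 0.196). Both differences were smaller with no coverage minimum, at 15.5 and 21.7 points in the order given here.

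Of the 5 named as lower in lambs, 4 were LMRs of the lamb list alone, each with 3 to 5 usable CpGs. The region chr11:13677819-13678430 was at 51.8%, 41.9% and 70.6% in fetal animals and at 6.52%, 17.6% and 21.2% in lambs (-39.6 points, adjusted p = 0.188). The region chr11:57065240-57065602 had even lambs, at 72.5%, 69.6% and 79.6% against 43.1%, 43.9% and 43.6% (-30.3 points, adjusted p = 0.188). Their differences were -23.7 and -24.6 points with no coverage minimum, in the order given here. Fetal means of the 4 ran from 54.8% to 81.0%, where the background outside the lists of chr11 was at 79.9% in fetal animals.

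The region chr11:61457375-61457652 went from 81.0% ± 8.35 to 48.2% ± 11.2 (SD, n = 3 each; adjusted p = 0.204), and chr11:58427395-58427436, only 42 bases long, from 79.5% ± 5.12 to 39.5% ± 12.5 (adjusted p = 0.228). The last, chr11:56739692-56740819, was a UMR in both stages with 9 usable CpGs. It was at 46.6%, 48.6% and 42.6% in fetal animals and at 25.0%, 17.5% and 26.2% in lambs (-23.1 points, adjusted p = 0.196), and it holds a DMR of the hypo list. The differences of chr11:61457375-61457652, chr11:58427395-58427436 and this UMR were -28.4, -35.1 and -12.5 points with no coverage minimum.

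No single DMV of chr11 was called. Of the 30 merged DMVs, 24 (80%) were listed in both stages, 3 in fetal tissue alone and 3 in lambs alone, with lengths of 5000 to 13000 bases and a median of 6350. Each overlapped 1 merged UMR or LMR. All 30 could be tested and 0 were called (2.19% of 547 over all autosomes), with a smallest adjusted p of 0.134 and 1 at an unadjusted p under 0.05 (20.5% over all autosomes). In 4 of the 30 the stages did not overlap, each higher in lambs, against 25.8% over all autosomes without overlap in either direction. By value, 18 of 30 (60%) were higher in lambs against 74.3% elsewhere, with a median difference of 0.46 points against 0.84.

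The 1 DMV at an unadjusted p under 0.05 was chr11:37340051-37347750, with 134 usable CpGs. It stood at 3.95%, 4.47% and 4.05% in fetal animals and at 5.39%, 5.94% and 5.80% in lambs, without overlap (quasi-binomial adjusted p = 0.134). It is 1 of 4 merged DMVs that lie within chr11:37317351-37430150. The longest, chr11:39546751-39559750, was at 3.50%, 3.40% and 2.98% against 4.31%, 3.07% and 4.25%, where lamb 2 fell among the fetal animals. The DMV chr11:12869151-12881550 had the most usable CpGs of the 30, 189, and the most reads summed over them, 1551 per animal. It was at 3.56%, 5.28% and 3.92% against 4.48%, 5.89% and 4.67%.

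The DMV chr11:50516651-50526850 was the other way round by value, with fetal animals at 5.59%, 6.84% and 4.82% and lambs at 4.23%, 4.91% and 5.39%, and the stages overlapped. In chr11:51695151-51705050 the fetal animals were even at 5.01%, 5.77% and 5.64% while the lambs lay on both sides of them at 6.72%, 3.30% and 7.79%. Without lamb 3 that difference changed sign, to -0.456 points. The highest of the DMVs was chr11:11260551-11266450, named after its values were seen, with stage means of 22.6% ± 4.90 and 26.1% ± 3.84 (SD, n = 3 each).

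The values of the DMRs describe what the lists hold. Since the lists' names were read from these levels, the counts by direction in part restate that reading. On the other autosomes 17 of 490 hyper DMRs with reads were lower in lambs and 15 of 457 hypo DMRs higher. At 66 of the 67 each animal had reads when no coverage minimum was set; in chr11:23210629-23210695 lamb 2 had none. All 34 hyper DMRs were higher in lambs, with median levels of 38.1% in fetal animals and 57.9% in lambs and a median difference of 23.4 points, and in 25 (73.5%, against 59.8% elsewhere) the animals of the stages did not overlap. All 32 hypo DMRs with reads were lower in lambs, with medians of 69.9% and 50.7% and a median difference of -22.3 points, and 19 (59.4%, against 57.3% elsewhere) did not overlap. These medians rest on 7 and 5 CpGs and on 45.8 and 32.5 reads per animal.

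Hyper DMRs of chr11 lay at UMR-class regions more often than those elsewhere by count, 19 of 34 (55.9%) against 36.6%, while 10 lay at LMR-class regions and 5 at neither. Of the hypo DMRs 14 of 33 (42.4%, against 40.8% elsewhere) lay at UMR-class regions, 8 at LMR-class regions and 11 at neither. The stage was read from the list entries that a DMR's own bases touched. Of the hyper DMRs at a listed region, 14 touched fetal entries alone, 0 lamb entries alone and 15 entries of both stages. Among the hypo DMRs the split was 0 with fetal entries alone, 13 with lamb entries alone and 9 with both. The merged region around such a DMR can still hold entries of both stages. The hyper DMR chr11:36216563-36216584 touched a fetal entry alone, yet lies in a merged region that was a UMR in both stages. A single DMR lay in a DMV, the hypo DMR chr11:39975139-39975355. With no coverage minimum this DMR was at 32.0%, 34.2% and 35.5% in fetal animals and at 10.8%, 7.27% and 8.57% in lambs. Its DMV, on CpGs with at least 5 reads in each animal, was at 7.41% ± 1.503 and 8.33% ± 3.03. On these unlike sets of CpGs, the DMR stood well above its DMV in fetal animals and near it in lambs.

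With the coverage minimum of 5 reads, 14 DMRs had at least 3 usable CpGs, and 12 of them passed the same test as above in the direction of the list, against 62.7% of the 276 tested over all autosomes. Without fetal animal 1 the count was 7, against 126 of 276 (45.7%) over all autosomes, and without fetal animal 2 or lamb 2 it was 8. In 11 the stages did not overlap, against 69.2%. Nothing is read from these counts, as the lists came from the same contrast. The 2 that did not pass were hypo DMRs. They were chr11:7915456-7915778, at 72.4%, 36.6% and 44.7% in the fetal animals against 41.3%, 42.3% and 21.3% in the lambs, and chr11:60879417-60879663, at 35.1% ± 9.26 and 28.0% ± 6.52. The third with overlap was the hyper DMR chr11:36900552-36901346. These 3 were named after their values were seen.

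Of the hyper DMRs without overlap, chr11:50841265-50841685 had the most usable CpGs, 13, at 124 reads per animal. It was at 60.6%, 52.7% and 56.9% in fetal animals and at 89.7%, 82.6% and 85.7% in lambs, a difference of 29.3 points. It lies outside all UMR and LMR entries, 16781 bases from the nearest UMR-class region, and it stood below the background of 79.9% in fetal animals and above that of 80.3% in lambs. The hyper DMR chr11:51085522-51086130, in an LMR of the fetal list, was at 38.8%, 41.03% and 41.8% against 67.9%, 81.1% and 61.4%.

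The hyper DMRs chr11:54901940-54902585 and chr11:47962428-47962763 both lie where fetal tissue had a UMR and lambs an LMR. The first was at 29.8%, 30.6% and 33.3% in fetal animals and at 55.9%, 59.0% and 47.9% in lambs. The second was at 23.1%, 25% and 9.52% against 50%, 61.1% and 29.6%, and lamb 3 was the lowest lamb in both. Both remaining ones lie at LMRs of the fetal list, chr11:22318166-22318454 at 49.99% ± 7.44 and 74.4% ± 3.05, and chr11:52598272-52599168 at 43.0% ± 3.73 and 60.4% ± 1.24 (SD, n = 3 each).

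Of the hypo DMRs without overlap, chr11:56739721-56740200 is the one inside the UMR of both stages named above. It was at 67.9%, 61.3% and 53.8% in fetal animals and at 31.4%, 23.1% and 18.2% in lambs, a difference of -36.8 points. These levels rest on 4 usable CpGs and 28 reads per animal. Over all its 19 CpGs, with no coverage minimum, the stage means were 47.6% and 25.5%, a difference of -22.1 points. The hypo DMR chr11:42209053-42209262, in a UMR of the lamb list, was at 74.4%, 75% and 41.2% against 38.5%, 27.6% and 20.7%. There the margin between fetal animal 3 and lamb 1 was narrow, and with no coverage minimum these animals overlapped.

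The hypo DMR chr11:59362147-59362485 lies outside the lists of low-methylated regions. Its fetal animals were at 88.2%, 88.9% and 89.6%, and its lambs were spread at 56.5%, 45.7% and 76.3%. The hypo DMR chr11:44378268-44378374, in a UMR of the lamb list, went from 66.1% ± 7.10 to 40.04% ± 9.66, and chr11:52453409-52453764, in a UMR of both stages, from 74.1% ± 7.44 to 52.1% ± 0.267 (SD, n = 3 each). Both rest on 3 usable CpGs. Over all its 9 CpGs, with no coverage minimum, chr11:52453409-52453764 had lower stage means, 55.4% and 31.1%, and a difference of -24.2 points.

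**Figure D5:**
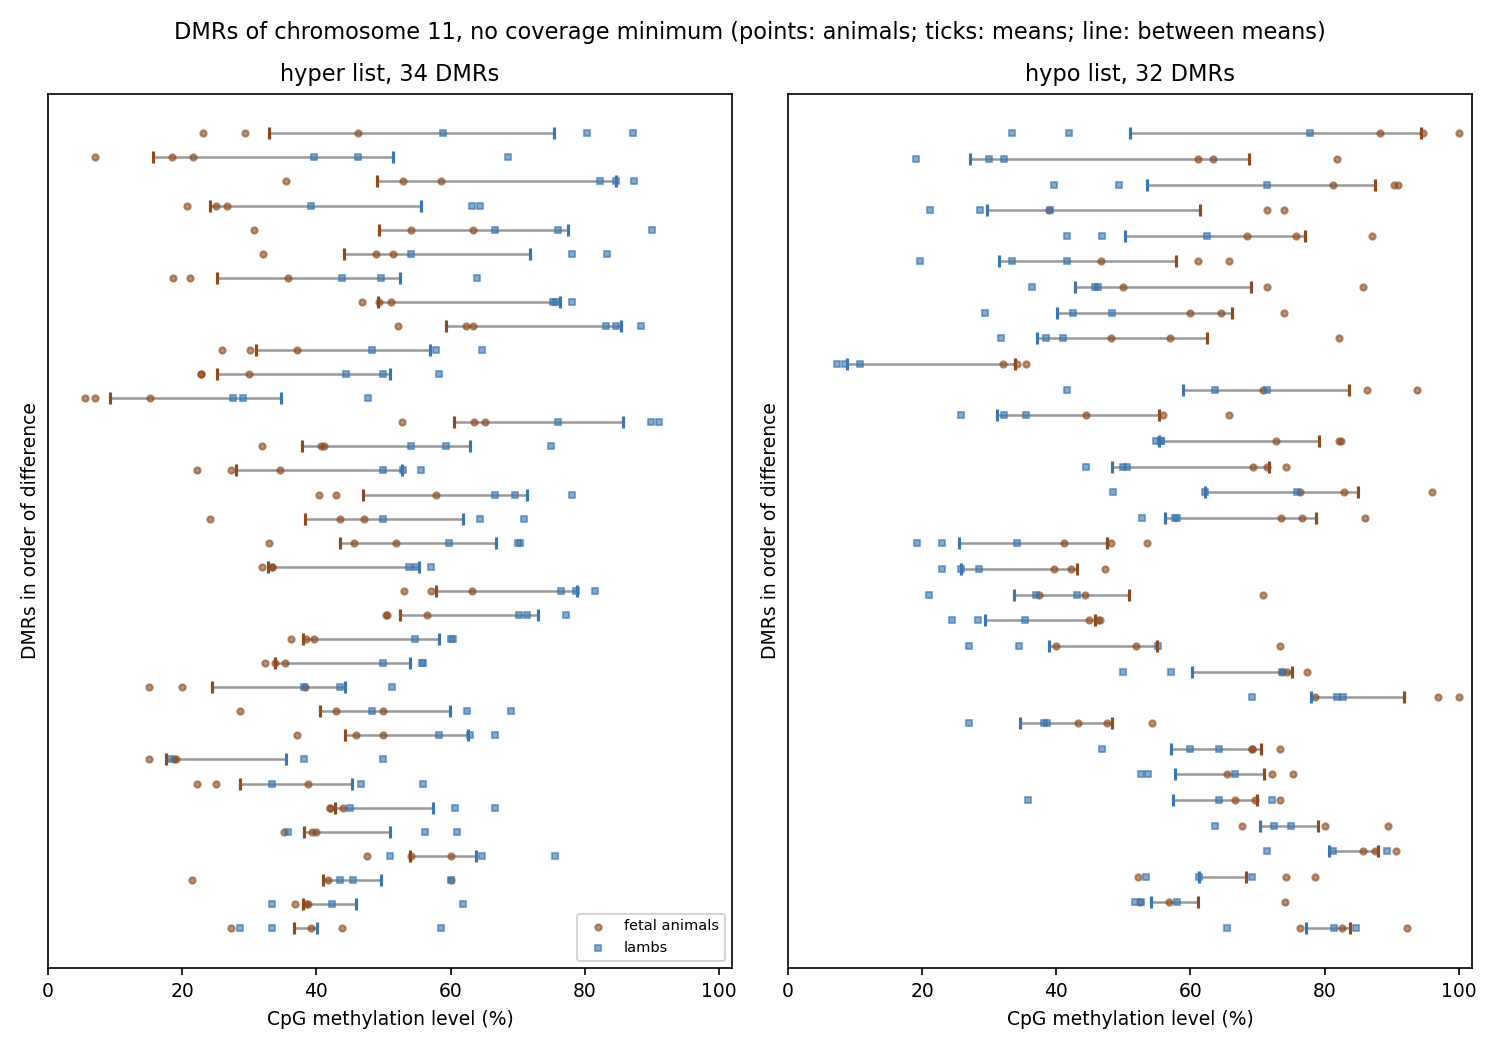
Levels (%) of the 34 hyper DMRs and of the 32 hypo DMRs of chr11 in which each animal had reads, with no coverage minimum, in order of difference. Circles are fetal animals, squares are lambs, vertical ticks are stage means and the grey line joins them. Hyper DMRs run from a median of 38.1% to 57.9% and hypo DMRs from 69.9% to 50.7%, and the stages overlap at the small differences.

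DMRs were unevenly placed along the chromosome. In the last 20 Mb, a length chosen after the positions were seen, lay 36 of the 67 (53.7%), 19 hyper and 17 hypo, on 32.1% of the span and with 39.0% of the merged UMRs and LMRs. With each chromosome cut into 3 equal lengths, the last held 56.7% of the DMRs of chr11 and 44.9% of those of the other autosomes. For UMR-class regions these shares were 41.6% and 42.0%, for LMR-class regions 39.7% and 39.2%, and for CpG positions 41.8% and 39.4%. DMRs of both lists were mixed along the chromosome, and 34 of the 66 neighbouring pairs were of the same list. The closest pair was of unlike kind, the hypo DMR chr11:55805735-55805787 and the hyper DMR chr11:55809943-55810060, 4155 bases apart. With no coverage minimum, the hypo DMR was at 50%, 85.7% and 71.4% in fetal animals against 45.8%, 46.2% and 36.4% in lambs. The hyper DMR was at 46.2%, 23.1% and 29.4% against 80.3%, 58.8% and 87.3%. They rest on 16.5 and 40.8 reads per animal, with as few as 11 and 13 in an animal, and neither was among the tested DMRs.

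In bins of 5 Mb, UMR-class regions were densest from 50 to 55 Mb, at 38 per Mb. That bin also held the most DMRs (12, of which 8 hyper) and 8 DMVs, with LMR-class regions at 129 per Mb and 20.7 CpGs per kb. The next bin, 55 to 60 Mb, held 11 DMRs, 134.4 LMR-class regions per Mb and no DMV. UMR-class regions were sparsest from 0 to 5 Mb, at 5.6 per Mb. There were no DMRs and no DMVs, 6.48 CpGs per kb, but LMR-class regions at 84.2 per Mb, close to the chromosome's 91.2.

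That first bin also differed in level. Its background outside the lists was at 68.2% ± 0.539 in fetal animals and 69.0% ± 1.45 in lambs (SD, n = 3 each), where the other bins had means of 77.9% to 84.5%. Its UMR class stood at 25.8% in fetal animals and 26.9% in lambs, and its LMR class at 39.9% and 41.8%. The longest UMR-class regions described above lie in it. The bin from 15 to 20 Mb had many LMR-class regions as well, 100.4 per Mb, and held 1 DMR. Over the 13 bins the density of DMRs ran with that of UMR-class regions (Spearman's rho 0.69, Pearson's r 0.66), of LMR-class regions (rho 0.44, r 0.66) and of CpGs (rho 0.60, r 0.73), all of which share the base composition of the bin.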

How the data were processed

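The authors deposited a table of counts, with a column of methylated and a column of covering reads per animal at every CpG position, and region lists of positions alone. The series design text gives Oar_v3.1 as the build; the submitters' processing notes name BWA, Picard, Oar_v3.1 and hg19 without their roles. The methylation caller, the filters and how lists were called: not given in the sources used here. Covering reads over CpG positions totalled 136938075 to 209550245 per animal, and intervals cover counting error only.

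Autosomes 1 to 26 were used. A CpG needed 5 reads in each animal and a tested region 3 such CpGs. Regions were tested by a quasi-binomial logistic model of methylated against unmethylated reads, two-sided, with the dispersion moderated as in limma's squeezeVar and not below 1, and Benjamini-Hochberg adjustment over all autosomal regions of a set. A call needed an adjusted p under 0.05 and 10 points (for DMVs the p alone). The test was also run on simulated reads that had the same overdispersion in every region. In the data the dispersion differed between regions, so nothing is concluded from that run. Lists overlap at 1 base. Regions were merged where they shared at least 1 base, and a distance is the number of bases between regions. Printed positions are counted from 1. limma ran on the log2 ratio of the 2 kinds of reads after adding a pseudocount of 1 to both.

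Named were the 5 members per direction without overlap and with the smallest p, up to 6 tested DMRs per list without overlap and with the largest difference, the 5 longest DMVs, the 3 longest UMR-class regions outside DMVs, the 3 LMR-class regions with most usable CpGs, and the extreme 5 Mb bins. Members and lists were chosen with earlier results of these data known. No annotation of the build was used here, so regions are given by position and the planned gene list was not run. The replicate numbers name separate animals: deviations of same-numbered animals over 78994 regions correlated at -0.000421, 0.00752 and 0.00332. Python 3.11.15, numpy 2.4.6, scipy 1.17.1, pandas 2.3.3, R 4.3.3, limma 3.58.1 and edgeR 4.0.16 were used.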

Additional observations from a re-analysis of the deposited data

How the results depend on the processing

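Leaving out 1 animal at a time, chr11 differed from the other autosomes by 0.285 to 0.404 points in the UMR class, -0.463 to -0.347 in the LMR class, -0.909 to -0.707 in DMVs and 0.450 to 0.537 outside the lists. The exact permutation p was 0.0625 throughout, the smallest that 5 animals allow, so no such value could pass. With regions of the same class in both stages, the differences of the UMR class (0.210) and the LMR class (-0.0455) no longer reached the smallest exact permutation p. With a minimum of 10 reads, chr11 kept 246 usable CpGs in the UMR class, 103 in the LMR class and 3 in DMVs. The difference from the other autosomes was then -3.98 points in the UMR class (exact permutation p = 0.03125), -3.83 in the LMR class (exact permutation p = 0.09375), -5.81 in DMVs and 5.05 outside the lists (exact permutation p = 0.03125 each), and the stage differences were -0.251 in the UMR class, 7.40 in the LMR class and -0.526 in DMVs. DMRs called on chr11 numbered 6 of 7 with at least 5 CpGs (92 of 120 over all autosomes), 31 of 45 with a minimum of 3 reads (383 of 686), 37 of 66 with no minimum (488 of 1013; chosen after seeing the data) and 7 to 9 of 14 without 1 animal. They numbered 7 without fetal animal 1 (126 of 276 over all) and 8 without fetal animal 2 (137) or lamb 2 (123). With a minimum of 3 reads 1 of 6449 members was called (20 of 134108 over all autosomes), and with none 1 of 7105 (33 of 154716). In both it is chr11:36900414-36902309, a UMR of the fetal list alone with a hyper DMR in it, at 41.3% ± 6.50 in fetal animals and 66.6% ± 5.04 in lambs (SD, n = 3 each; quasi-binomial adjusted p = 0.0357 with a minimum of 3 reads), named after its values were seen. Called windows numbered 11 of 50873 with a minimum of 3 reads (142 of 1617616 over all) and 2 of 23907 with windows of 2 kb (25 of 692136), chr11:5800001-5802000 and chr11:50840001-50842000. The first had uneven lambs, at 68.4%, 85.3% and 49.3% against 39.7%, 41.7% and 36.3% in fetal animals, on 24 CpGs with 404.5 reads per animal. The second had lambs at 89.6%, 87.1% and 88.1% against 77.7%, 69.4% and 78.3%, on 31 CpGs with 300.8 reads. Density ratios were 1.76 for UMRs and 1.16 for LMRs per CpG, 1.81 and 1.83 for the fetal and the lamb LMR list, and for DMRs 1.82 per CpG, 1.46 per UMR or LMR and 1.03 per UMR-class region (the last chosen after seeing the data). The difference of UMR chr11:594358-621883 changed sign with no minimum (-1.75) and ran from -1.61 (without lamb 2) to 5.57 with 1 animal left out, and that of DMV chr11:51695151-51705050 from -0.456 (without lamb 3) to 1.78. With the replicate number as a block, which pairs no animals, 0 members, 13 DMRs, 0 DMVs and 0 windows were called. With a minimum of 10 reads the test could not be fitted on DMRs (2 left) or DMVs (12 left). Where causes are not given by fewer CpGs or animals, the cause was not tested. Of the other values for single named regions, 350 kept their direction and side of the threshold and 24 kept their direction alone. For the named members and DMVs, none of which was called, the same side means only that they stayed uncalled. These counts take no account of size. The difference of chr11:45735796-45736666 went from 40.1 to 21.7 points with no minimum, and that of chr11:56739692-56740819 from -23.1 to -12.5.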
